A study of Mus musculus with 20 samples.

Results

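Airn, Kcnq1ot1, Meg3, Rian, Mirg and H19 are the 6 imprinted long non-coding RNAs described here, and the 10 lists of N6-methyladenosine (m6A) peaks held 472 peaks on them, of 437949 peaks in all. A peak was counted when its summit lay in the gene body of a member, on the same strand, in the GENCODE M21 annotation of the mm10 mouse genome. Imprinted genes are expressed from the allele of a single parent. Airn and Kcnq1ot1 are long nuclear RNAs made from the paternal allele that silence neighbouring genes on the same chromosome, Airn in the Igf2r cluster and Kcnq1ot1 in the Kcnq1 cluster. Meg3, Rian and Mirg are made from the maternal allele of the Dlk1-Dio3 cluster, where Rian hosts small nucleolar RNAs and Mirg hosts microRNAs, and H19 is made from the maternal allele beside Igf2. m6A is placed on nuclear RNA by a methyltransferase whose catalytic subunit is Mettl3, mostly at adenosines in a GGAC-like context, and Ythdc1 is the nuclear protein that binds it.

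The libraries came from C57BL/6 mouse embryonic stem cells, which all groups share, grown with LIF, CHIR99021 and PD0325901. Chromatin-associated RNA was depleted of ribosomal RNA, fragmented and immunoprecipitated with an m6A antibody. The groups were the Mettl3 knockout lines KO1 and KO2, their Mettl3 control, the Ythdc1 conditional knockout (cKO) and its Ythdc1 control, with 2 libraries each. How the knockouts were made, whether each line is 1 clone, which alleles the controls carry and whether replicates are separate cultures are points not given in the sources used here, so p-values measure only the spread between libraries, which may be technical. A further 10 input samples were not analysed here.

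The lists held 40959 to 46735 peaks each. Of 10 embryonic stem cell markers 9, among them Nanog, Pou5f1 and Sox2, had a peak in every library, and Utf1 had none in the 4 Mettl3 knockout libraries. Of 12 fibroblast markers, which could mark feeder cells, 2 had a peak in each KO1 and each KO2 library, against 6 in each Mettl3 control library. The number was 3 in each cKO library, against 2 in each Ythdc1 control library. Their peaks summed to 2 and 4 in KO1 and 3 and 3 in KO2, against 7 and 9 in the Mettl3 control, and to 6 and 5 in the cKO, against 2 and 3 in the Ythdc1 control. Col1a1, Col1a2, Col5a2 and Lox had a peak in no Mettl3 knockout library and in both Mettl3 controls, while Col3a1, Col6a1, Col6a2, Thy1, Postn and Dcn had none in any library. Of 5 primitive endoderm markers 2 had a peak in each cKO library, against 0 and 1 in the Ythdc1 control. The part of such cells in the results below was not tested.

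A peak list does not measure the level of Mettl3 or Ythdc1 RNA, so the knockout labels were not checked against it, and it gives no read totals. Each peak's fold enrichment and p-value, both from the authors, fix the number of reads piled up at the summit and the Poisson background behind it, and both were solved for. All 472 member peaks gave a whole number, within 0.002 on the −log10 p scale. The background is at least the most common value of the library and strand, which lay between 14.1 and 20.03 reads and serves here as a measure of depth. It was 20.03 and 19.27 reads in the cKO, against 17.77 and 15.69 in the Ythdc1 control, on the plus strand. A scaled pile-up is the pile-up divided by that value. The pile-up of a region is that of its peak of highest fold in each library, which in wide regions can be a different summit in different libraries, so read counts are also given for regions whose summits lay within 150 bp of each other in the libraries compared, called matched summits here. Whether that background came from the input or from the immunoprecipitation itself is not given in the sources used here.

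**Figure D1:**
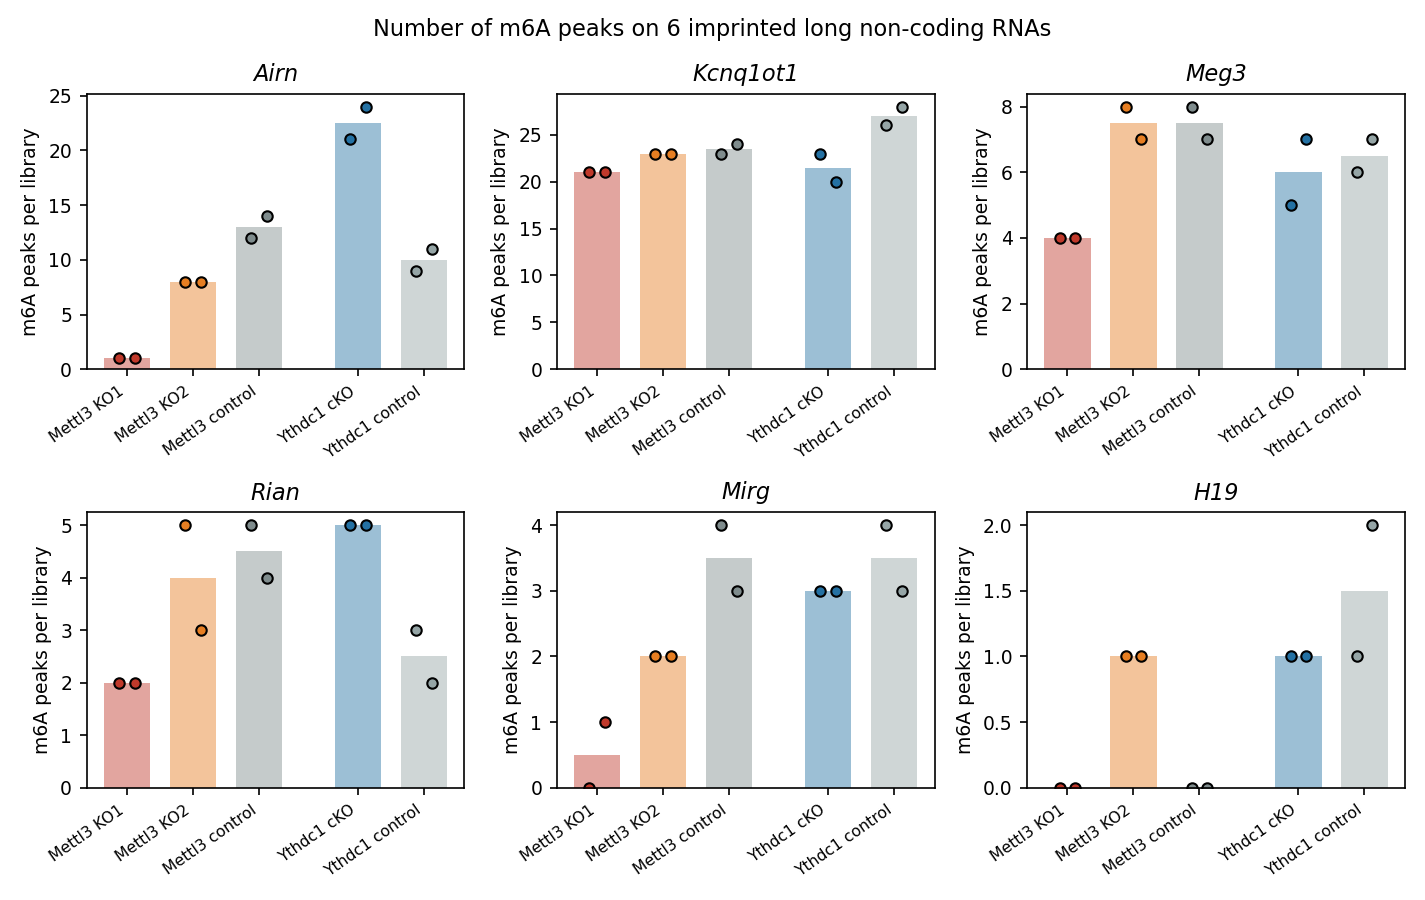
Number of m6A peaks per library (y axis) on each of the 6 RNAs, by group (x axis); points are the 2 libraries of a group and bars their mean. Airn held 1 peak in each KO1 library and 21 and 24 in the cKO libraries, whereas Kcnq1ot1 held between 20 and 28 in every library.

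Across the 6 RNAs, peak numbers summed to 28 and 29 in KO1 and 47 and 44 in KO2, against 52 and 52 in the Mettl3 control. They summed to 58 and 60 in the cKO, against 49 and 53 in the Ythdc1 control. Kcnq1ot1 carried 232 of the 472 peaks and Airn 109, followed by Meg3 with 63, Rian with 36, Mirg with 25 and H19 with 7. Per 10 kb of gene and library, H19 had 2.68 peaks, Kcnq1ot1 2.49, Meg3 2.05, Mirg 1.27, Airn 0.917 and Rian 0.623. Merged over the 10 libraries, the peaks formed 82 regions, of which 18 (22.0%) were present in every library, against 18.1% of all 87498 regions. Kcnq1ot1 held 12 of these 18, Meg3 3, Rian 2 and Airn 1.

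A region was called lost when every knockout library lacked a peak that each control had, kept when no library lacked it, and gained when all knockout libraries but no control had it. Of 44 member regions called in both Mettl3 controls, KO1 and KO2 together lost 7 (15.9%) and kept 20 (45.5%), and of 20 regions called in all 4 knockout libraries 0 were gained. Over all regions, 13.1% were lost, 57.7% kept and 4.38% gained. Over regions in long non-coding RNA genes, 15.1% were lost, 52.1% kept and 4.38% gained, so the share of member regions lost lay near the background. Without replicate 1 of the Mettl3 control, 13 regions counted as lost. KO1 taken alone lost 19 of the 44 (43.2%), against 24.3% of all regions and 31.3% of those in long non-coding RNA genes. It kept 21 (47.7%), against 64.6% and 57.1%, and gained 0 of 21, against 12.3% and 10.9%. KO2 alone lost 7 of 44 (15.9%), against 18.4% and 19.2%, and kept 31 (70.5%), against 70.3% and 69.2%. It gained 2 of 35 (5.71%), against 14.7% and 15.8%, at 47.8 kb in Airn and at the 5′ end of H19. The comparisons of KO1 and of KO2 share their controls. In the cKO, 3 of 38 control regions (7.89%) were lost, against 17.9% of all regions and 16.8% of those in long non-coding RNA genes. The cKO kept 34 (89.5%), against 72.2% and 73.9%, and gained 16 of its 54 regions (29.6%), against 28.0% and 25.8%. Without replicate 1 of the Ythdc1 control 8 were lost, and without its replicate 2 the count was 6. Positions are given in kb from the 5′ end, as the median summit over the libraries compared, so that 1 region can have slightly different positions in different comparisons. A call rests on whether a peak was listed, and in bulk samples fewer cells that make an RNA, less RNA per cell and less m6A per molecule cannot be told apart.

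Airn, a 119 kb transcript that starts within Igf2r on the opposite strand (chr17:12741311-12860136, plus strand, mm10), had between 1 and 24 peaks in a library. It had 1 peak in each KO1 library and 8 in each KO2 library, against 12 and 14 in the Mettl3 controls. It had 21 and 24 in the cKO, against 9 and 11 in the Ythdc1 controls. All 4 Mettl3 knockout libraries lay below both controls and both cKO libraries above theirs. The mean difference was −8.5 peaks for the Mettl3 knockouts (4.5 ± 4.04, n = 4, against 13 ± 1.41, n = 2, SD; exact two-sided permutation p = 0.133, smallest possible 0.0667). Of genes with a mean of 3 or more peaks in the controls, 13.6% also lay below both controls in all 4 knockout libraries and 5.17% above, and of all genes with a peak 8.58% lay below and 5.02% above. In KO1 alone, 45 of 4350 such genes (1.03%) had a mean of 0.1 times the control mean or less, as Airn did. In the cKO the mean difference was 12.5 peaks (22.5 ± 2.12 against 10 ± 1.41, SD, n = 2 each; exact two-sided permutation p = 0.333, the smallest that 2 against 2 libraries allow). Above both controls lay 7.95% of genes with a mean of 3 or more control peaks, and 60 of 4664 (1.29%) reached 2 times the control mean or more.

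Most Airn summits lay outside annotated exons, which make up 3.03% of the gene. Of its 109 peaks 7 had an exonic summit, and 25 of its 28 regions lay in introns only. Peaks covered 0.133% ± 0.00774 of the gene in KO1 and 1.89% ± 0.354 in KO2, against 3.26% ± 0.502 in the Mettl3 control (SD, n = 2 each). They covered 8.72% ± 0.0393 in the cKO, against 2.63% ± 0.442 in the Ythdc1 control (SD, n = 2 each). Summits ran from 0.141 kb to 86.5 kb from the 5′ end, and none lay in the rest of the gene. Beyond 60 kb stood 1 peak in each KO1 library and 3 in each KO2 library, against 7 and 8 in the Mettl3 control. Beyond 60 kb stood 12 and 15 peaks in the cKO, against 3 and 5 in the Ythdc1 control. Before 60 kb the cKO held 9 and 9, against 6 and 6 in its control, so the larger difference lay in the distal stretch. The median summit stood at 52.8% and 53.9% of the gene length in the cKO, against 29.3% and 32.2% in its control. The values in the Mettl3 libraries were 54.2% and 54.1% in KO1, from 1 peak each, and 34.8% and 34.8% in KO2, against 51.7% and 51.8% in the control.

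**Figure D2:**
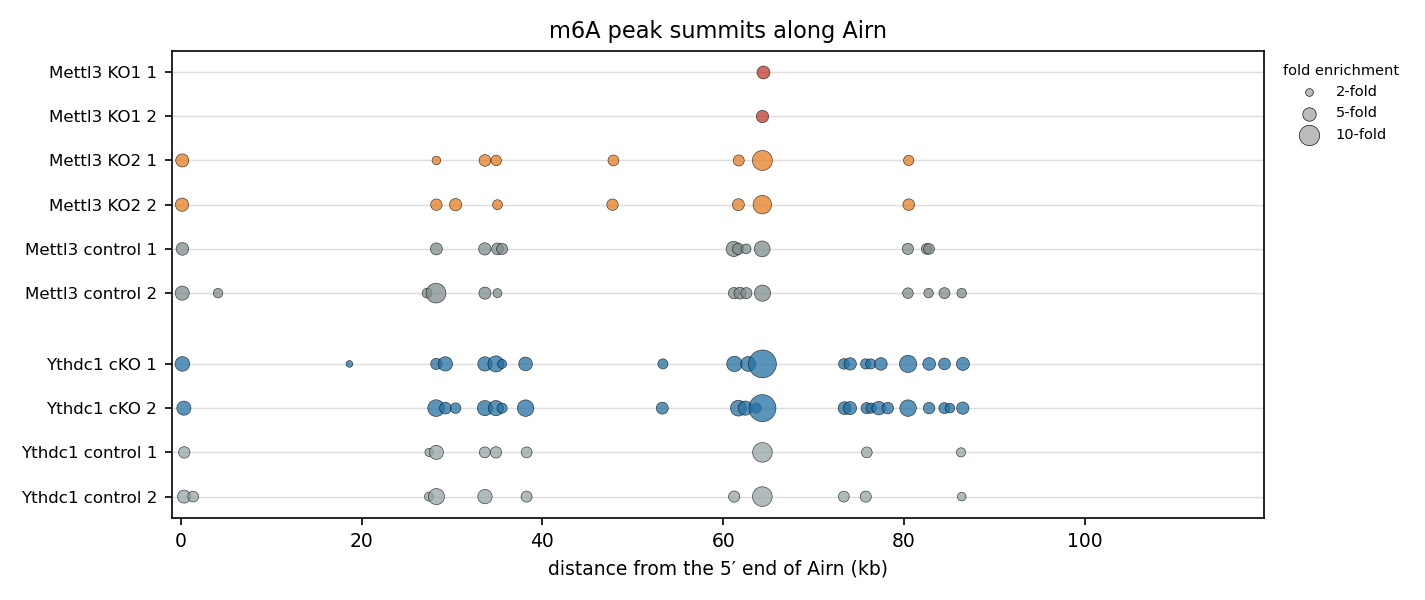
Summits of m6A peaks along Airn (x axis, kb from its 5′ end) in each of the 10 libraries (rows); the area of a point grows with the authors' fold enrichment. KO1 keeps a single peak at 64.3 kb, and the cKO rows hold 5 and 6 peaks between 70 and 80 kb, against 1 and 2 in the Ythdc1 control rows.

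A single Airn region was present in all 10 libraries, an intronic one at 64.3 kb (chr17:12805526-12805749). It was the only Airn peak in KO1, and its fold was the highest of Airn in every library but replicate 2 of the Mettl3 control. The authors' fold enrichment there was 4.69 and 4.34 in KO1 and 9.74 and 8.54 in KO2, against 6.62 and 6.84 in the Mettl3 control. In the cKO it was 16.9 and 16.1, against 9.43 and 9.47 in the Ythdc1 control. Folds are relative to each list's own background, so they describe the libraries side by side without a test. The pile-up was 80 and 75 reads in KO1 and 188 and 135 in KO2, against 114 and 130 in the Mettl3 control, with the background at or near its lowest value in every library. It was 354 and 355 reads in the cKO, against 176 and 157 in the Ythdc1 control. The scaled pile-up in KO1 was 0.670 times that of the control, in KO2 1.47 times, and in the cKO 1.81 times. Sequence shared with other transcripts was looked for in exons only, so this region and most others of Airn were not checked for it.

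In the cKO 10 of 20 Airn regions were gained and 0 of the 7 control regions lost. Of the 6 with the highest fold, the one at 80.4 kb reached 7.66 and 7.05, the one at 62.5 kb 5.94 and 5.52 and the one at 29.3 kb 5.60 and 4.06. The regions at 77.3 kb (4.52 and 5.08), 74.0 kb (4.38 and 4.88) and 82.8 kb (4.61 and 3.90) followed, and the one at 77.3 kb overlaps the pseudogene Gm16574, whose reads cannot be told apart from those of Airn. The 7 regions kept in all 4 Ythdc1 libraries had a scaled pile-up of 0.968 to 1.82 times the control, with a median of 1.35, against a median of 0.919 over all regions kept. In 5 of these 7 both cKO libraries lay above both controls, which 28.7% of all such regions did. Of the 5 with matched summits 3 lay above both controls, against 27.2% of all matched regions, with a median of 1.35. Without scaling to depth all 7 lay above both controls, as 43.3% of all regions did. Against the Mettl3 controls, KO1 lost 9 of 10 Airn regions and KO2 3 of 10. The 3 absent from all 4 knockout libraries stood at 61.2 kb, 62.6 kb and 82.8 kb, with control folds of 2.82 to 6.21. Of the 9 lost in KO1, the one of highest fold stood at 28.2 kb, with 2.38 and 3.83 in KO2, against 4.14 and 9.55 in the Mettl3 control. No genome sequence was used here, so only the window of an exonic Airn summit can be shown. It is the cKO-gained region at 74.0 kb (chr17:12815272-12815372, plus strand), shown as the bases around the summit and with no GGAC, which capitals mark here and below:
Airn, 74.0 kb: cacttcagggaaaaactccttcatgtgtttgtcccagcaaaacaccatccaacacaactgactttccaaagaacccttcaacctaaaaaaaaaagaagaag

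Kcnq1ot1, a single-exon transcript of 93.1 kb within Kcnq1 on the opposite strand (chr7:143203458-143296549, minus strand), carried between 20 and 28 peaks in every library. It had 21 peaks in each KO1 library and 23 in each KO2 library, against 23 and 24 in the Mettl3 controls. It had 23 and 20 in the cKO, against 26 and 28 in the Ythdc1 controls. The Mettl3 knockouts overlapped their controls, with a mean difference of −1.5 (22 ± 1.15, n = 4, against 23.5 ± 0.707, n = 2, SD; exact two-sided permutation p = 0.267). That difference was 0.396 peaks in the other direction once numbers were scaled to the length of each list. The cKO lay below its control by 5.5 peaks on average (21.5 ± 2.12 against 27 ± 1.41, SD, n = 2 each; exact two-sided permutation p = 0.333). Of genes with a mean of 3 or more peaks in the Ythdc1 controls, 42.6% lay below both controls in the cKO. With peaks of 3-fold or more alone, the cKO difference was 2 peaks in the other direction. Peaks covered 19.1% ± 0.551 of the gene in the cKO, against 13.97% ± 0.953 in its control (SD, n = 2 each), so fewer peaks covered a longer stretch.

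Summits lay between 1.17 and 78.6 kb from the 5′ end, with 47 of the 232 between 50 and 60 kb, 43 between 60 and 70 kb and 61 between 70 and 80 kb. The rest of the transcript, toward the 3′ end, held none in any library. Of 21 control regions in the Mettl3 comparison 14 were kept by all knockout libraries. The 2 lost from all 4, at 45.4 and 53.2 kb, had control folds of 2.46 to 3.03. KO1 also lacked 2 neighbouring regions, at 75.3 kb (chr7:143220924-143221864) and 76.5 kb (chr7:143219728-143220596). The one at 75.3 kb had folds of 6.69 and 4.17 in KO2, against 6.00 and 3.99 in the Mettl3 control. The one at 76.5 kb had 5.37 and 6.67 in KO2, against 4.01 and 7.30 in the Mettl3 control. Both were present in the other 8 libraries. In the Ythdc1 comparison 17 of 20 control regions were kept. The 3 lost, at 30.9, 34.5 and 44.5 kb, had control folds of 1.98 to 2.49, and the 3 gained, at 53.0, 70.1 and 74.3 kb, had cKO folds of 2.35 to 3.51.

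The windows below show 5 Kcnq1ot1 regions, all from GENCODE M21 transcripts and written 5′ to 3′ on the minus strand. Each window is centred on the summit of highest fold in any library. The regions at 38.0 kb (window chr7:143258469-143258569), 71.5 kb (window at 72.4 kb, chr7:143224051-143224151) and 78.5 kb (chr7:143217989-143218089) were present in all 10 libraries and have the highest folds. The summit at 72.4 kb is that of replicate 1 of the Mettl3 control, and the median summit of its region is at 71.5 kb. Those at 75.3 kb (chr7:143221182-143221282) and 76.5 kb (chr7:143219849-143219949) are missing from KO1. The window labelled 76.5 kb, after the median summit of its region, is centred at 76.65 kb, the summit of replicate 2 of the Mettl3 control.
Kcnq1ot1, 38.0 kb: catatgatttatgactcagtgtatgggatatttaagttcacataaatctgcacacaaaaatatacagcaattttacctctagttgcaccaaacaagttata
Kcnq1ot1, 72.4 kb: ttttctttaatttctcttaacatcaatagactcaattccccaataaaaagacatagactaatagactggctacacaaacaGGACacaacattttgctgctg
Kcnq1ot1, 75.3 kb: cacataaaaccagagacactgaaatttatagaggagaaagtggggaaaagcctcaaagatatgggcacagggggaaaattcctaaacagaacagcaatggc
Kcnq1ot1, 76.5 kb: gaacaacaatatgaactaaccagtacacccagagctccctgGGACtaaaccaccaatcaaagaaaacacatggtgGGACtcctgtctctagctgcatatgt
Kcnq1ot1, 78.5 kb: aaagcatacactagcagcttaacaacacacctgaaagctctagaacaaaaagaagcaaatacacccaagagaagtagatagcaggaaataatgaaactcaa
Of these 5 windows those at 72.4 and 76.5 kb hold GGAC, searched on the transcribed strand. Over all libraries 61 of 232 Kcnq1ot1 summits (26.3%) had GGAC within 50 nt, against 23.7% of all positions of the transcript, and for GGACT, which contains GGAC, the shares were 15.1% and 7.87%. Many of these summits are the same region in several libraries. Counted once per region, 6 of 29 windows (20.7%) hold GGAC, below the share of all positions, and 5 of 29 (17.2%) hold GGACT. Inside the regions GGAC occurred 3.89 times per kb, against 2.42 outside, and the share of A was 40.2% inside, against 30.9% outside. By group the share of summits with GGAC was 16.7% ± 3.37 in KO1 and 30.4% ± 6.15 in KO2, against 31.97% ± 3.97 in the Mettl3 control (SD, n = 2 each). Both KO1 libraries lay below both controls, with 4 of 21 and 3 of 21 summits, against 8 of 23 and 7 of 24. KO2 overlapped the controls. The gap rests on few summits, and the Ythdc1 control libraries alone spanned 21.4% to 34.6%. How many other genes show such a gap was not counted. The share with GGAC was 23.7% ± 8.92 in the cKO, against 28.0% ± 9.32 in the Ythdc1 control, where the groups overlapped.

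Part of the distal stretch shares sequence with other transcripts. In the 7 regions from 67.2 to 78.5 kb, between 10.3% and 44.4% of all 31-base words also occur in transcripts of other genes, on either strand, and the highest share is that of the region at 75.3 kb. Over the whole RNA the share was 9.32% in the regions, against 3.02% outside. Outside the distal stretch, the region at 22.8 kb shared 13.6%. Only transcripts were searched, so copies elsewhere in the genome were not counted. How reads that match several places were treated is not given in the sources used here, so the reads of these 7 regions and of the one at 22.8 kb are uncertain.

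**Figure D3:**
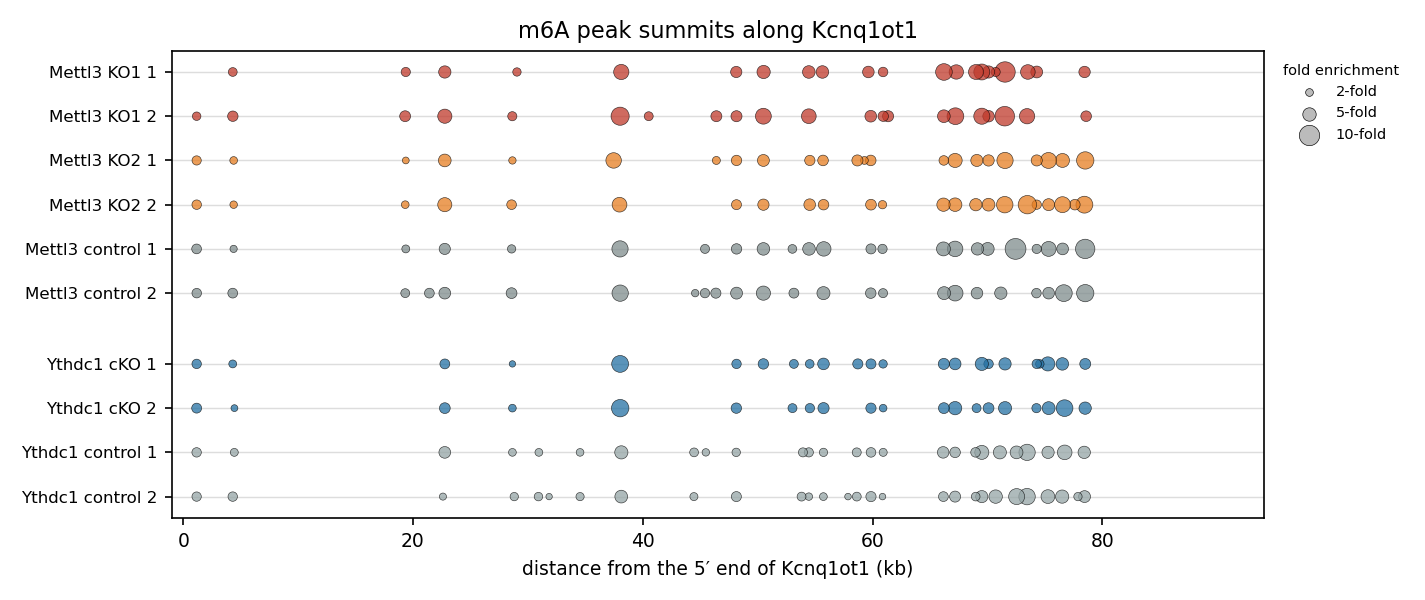
Summits of m6A peaks along Kcnq1ot1 (x axis, kb from its 5′ end) in each of the 10 libraries (rows); the area of a point grows with the authors' fold enrichment. Most summits lie between 50 and 80 kb in every row, and the KO1 rows lack the peaks at 75.3 and 76.5 kb.

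The reads behind the kept Kcnq1ot1 regions differed between lines although the peaks were kept. At 38.0 kb the pile-up was 284 and 323 reads in KO1, against 419 and 429 in the Mettl3 control, with authors' folds of 6.20 and 8.29, against 6.88 and 6.96. At 48.2 kb it was 171 and 180 reads in KO1 and 218 and 217 in KO2, against 201 and 234 in the Mettl3 control. At 78.5 kb it was 62 and 56 reads in KO1 and 124 and 110 in KO2, against 151 and 179 in the Mettl3 control. In KO1 the scaled pile-up of the 15 Kcnq1ot1 regions shared with the control was 0.375 to 0.912 times the control, with a median of 0.629, and 14 lay below both controls. Over all regions so compared the median was 0.938 and 43.5% lay below both controls. Of the 10 with matched summits 9 lay below, with a median of 0.716, against 40.6% and 0.966 over all matched regions. In KO2 the median of 18 regions was 1.04, with 4 below and 4 above, and the 13 with matched summits also gave 4 and 4. Without scaling to depth 8 of the 18 lay below and 1 above, with a median of 0.939.

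In the cKO 10 kept Kcnq1ot1 regions had matched summits. Their scaled pile-up was 0.876 and 0.753 times the Ythdc1 control at 1.17 and 4.38 kb, 1.28 times at 38.1 kb, 1.06 times at 48.1 kb and 1.65 times at 55.7 kb. It was 0.968 times at 60.9 kb, 1.18 times at 66.2 kb, 1.37 times at 67.2 kb, 1.66 times at 75.3 kb and 2.71 times at 78.5 kb. Of the 10 regions 6 lay above both controls and 2 below, against 27.2% above and 47.3% below over all matched regions. At 78.5 kb the pile-up was 233 and 218 reads in the cKO, against 77 and 68 in the Ythdc1 control. The background there was 64.4 and 49.2 reads in the cKO, against 16.9 and 15.8, so the fold was 3.58 and 4.37 in the cKO, against 4.37 and 4.10 in its control. The regions at 67.2, 75.3 and 78.5 kb are among those that share sequence with other transcripts. Of all 17 kept regions 10 lay above both controls and 4 below, against 28.7% above and 45.6% below over all regions kept. Without scaling to depth, 11 of the 17 lay above and 1 below. No ratio is given for the other 7 regions, whose summits lay farther apart.

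Meg3, a maternally expressed RNA of the Dlk1-Dio3 cluster (chr12:109541001-109571726, plus strand), had 4 peaks in each KO1 library and 8 and 7 in KO2, against 8 and 7 in the Mettl3 controls. It had 5 and 7 in the cKO, against 6 and 7 in the Ythdc1 controls. KO1 lay below both controls, as 23.2% of genes with a mean of 3 or more control peaks did. KO2 and the cKO overlapped their controls. The mean difference of the 4 Mettl3 knockout libraries was −1.75 (5.75 ± 2.06, n = 4, against 7.5 ± 0.707, n = 2, SD; exact two-sided permutation p = 0.4), and that of the cKO −0.5 (6 ± 1.41 against 6.5 ± 0.707, SD, n = 2 each; exact permutation p = 1). With peaks of 3-fold or more alone, the Mettl3 difference was 1.75 peaks in the other direction. Of 6 control regions 2 were lost in all Mettl3 knockouts. One, near the 5′ end of the gene (chr12:109541038-109541270), had no peak in the 4 knockout libraries and folds of 5.54 and 4.38 in the Mettl3 control. The same region had folds of 2.42 and 2.84 in the cKO and no peak in the Ythdc1 control. It overlaps a small RNA gene, Gm27596, whose reads cannot be told apart from those of Meg3. The other lost region, at 4.95 kb, had 2.76 and 2.48 in the Mettl3 control.

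Rian (chr12:109603940-109661716, plus strand), the host of small nucleolar RNAs, had 2 peaks in each KO1 library and 5 and 3 in KO2, against 5 and 4 in the Mettl3 controls. It had 5 in each cKO library, against 3 and 2 in the Ythdc1 controls. The mean difference of the Mettl3 knockouts was −1.5 (3 ± 1.41, n = 4, against 4.5 ± 0.707, n = 2, SD; exact two-sided permutation p = 0.4). In the cKO it was 2.5, with no overlap (5 ± 0 against 2.5 ± 0.707, SD, n = 2 each; exact two-sided permutation p = 0.333), and 12.4% of genes with a peak lay above both Ythdc1 controls. The 2 regions gained in the cKO, at 5.12 and 53.7 kb, had folds of 2.61 to 4.11, and both were also absent from KO1. They had folds of 3.77 to 4.75 in the Mettl3 control.

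Mirg (chr12:109729764-109749460, plus strand), the host of microRNAs, had 0 and 1 peaks in KO1 and 2 in each KO2 library, against 4 and 3 in the Mettl3 controls. It had 3 in each cKO library, against 4 and 3 in the Ythdc1 controls. All 4 Mettl3 knockout libraries lay below both controls (1.25 ± 0.957, n = 4, against 3.5 ± 0.707, n = 2, SD; exact two-sided permutation p = 0.133), as 13.6% of genes with a mean of 3 or more control peaks did. KO1 lost 2 of 3 control regions, at 4.59 and 11.7 kb, while all 3 Ythdc1 control regions were kept. The region at 4.59 kb (chr12:109733828-109734839) holds the whole hairpins of mir-134 and mir-668 and part of that of mir-382. Among the Mettl3 knockout libraries it had a peak in KO2 replicate 2 alone, of fold 6.28, against 5.58 and 4.29 in the Mettl3 control. Windows around the summits of 3 exonic regions of this cluster follow, of a Meg3 region (chr12:109561577-109561677) and a Rian region (chr12:109660847-109660947) present in all 10 libraries and of the Mirg region with the hairpins (chr12:109734319-109734419). A mature microRNA from RefSeq (GRCm38.p6) whose hairpin lies wholly in that Mirg region is shown with its seed in capitals:
Meg3, 20.6 kb: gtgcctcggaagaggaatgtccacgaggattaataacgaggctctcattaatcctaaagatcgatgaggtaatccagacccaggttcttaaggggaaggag
Rian, 57.0 kb: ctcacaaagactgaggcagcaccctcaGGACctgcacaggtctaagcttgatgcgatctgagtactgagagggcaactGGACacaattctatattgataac
Mirg, 4.59 kb: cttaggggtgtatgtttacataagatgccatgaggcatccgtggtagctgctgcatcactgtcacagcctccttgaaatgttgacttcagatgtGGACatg
miR-134-5p: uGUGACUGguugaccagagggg
GGAC stood within 50 nt of 18 of 45 exonic Meg3 summits (40%), against 32.8% of exonic positions. The count was 10 of 15 for Rian (66.7%, against 17.5%) and 6 of 9 for Mirg (66.7%, against 44.6%). All 10 such Rian summits came from the region at 57.0 kb, once in each library. Counted once per region, GGAC stood in 5 of 7 Meg3 windows, 1 of 2 Rian windows and 1 of 3 Mirg windows (33.3%, below the share of Mirg positions).

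In KO1 the reads behind the Meg3 and Rian regions with matched summits were lower than in the Mettl3 control. At the Meg3 region at 18.9 kb the pile-up was 139 and 133 reads in KO1 and 310 and 282 in KO2, against 383 and 372 in the Mettl3 control. Its background was 16.3 and 26.6 reads in KO1 and 88.1 and 91.7 in KO2, against 169 and 151 in the control. The fold was 8.10 and 4.85 in KO1 and 3.49 and 3.05 in KO2, against 2.26 and 2.45 in the control, so a higher fold in KO1 stood beside fewer reads at the summit. The Meg3 regions at 3.02 and 20.6 kb also kept a peak, but their summits in KO1 and the control spread over 285 and 602 bp.

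At the Rian region at 57.0 kb the pile-up was 75 and 111 reads in KO1 and 389 and 351 in KO2, against 488 and 515 in the Mettl3 control. At the Rian region at 32.6 kb (chr12:109636258-109636751) it was 122 and 158 reads in KO1 and 375 and 360 in KO2, against 496 and 513. In KO1 the scaled pile-up of the Meg3 region at 18.9 kb was 0.378 times the control, and that of the Rian regions 0.195 and 0.292 times, against a median of 0.966 over all 20085 matched regions. At 0.5 times the control or less lay 4 of the 14 member regions with matched summits in KO1, against 2.65% of all matched regions, and these 4 were the 3 of Meg3 and Rian and 1 of Kcnq1ot1, at 78.5 kb. Fibroblast marker peaks were fewer in both KO1 and KO2 than in the Mettl3 control, and their part in these values was not tested. In KO2 the 3 Meg3 regions with matched summits lay at 0.565 to 0.869 times the control and the 2 Rian regions at 0.809 and 0.819 times, with all 5 below both controls, as 25.9% of all matched regions did. The Meg3 values of 0.660 at 3.02 kb and 0.565 at 30.5 kb rest on uncertain reads. Most exonic sequence of both regions also occurs in other transcripts.

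**Figure D4:**
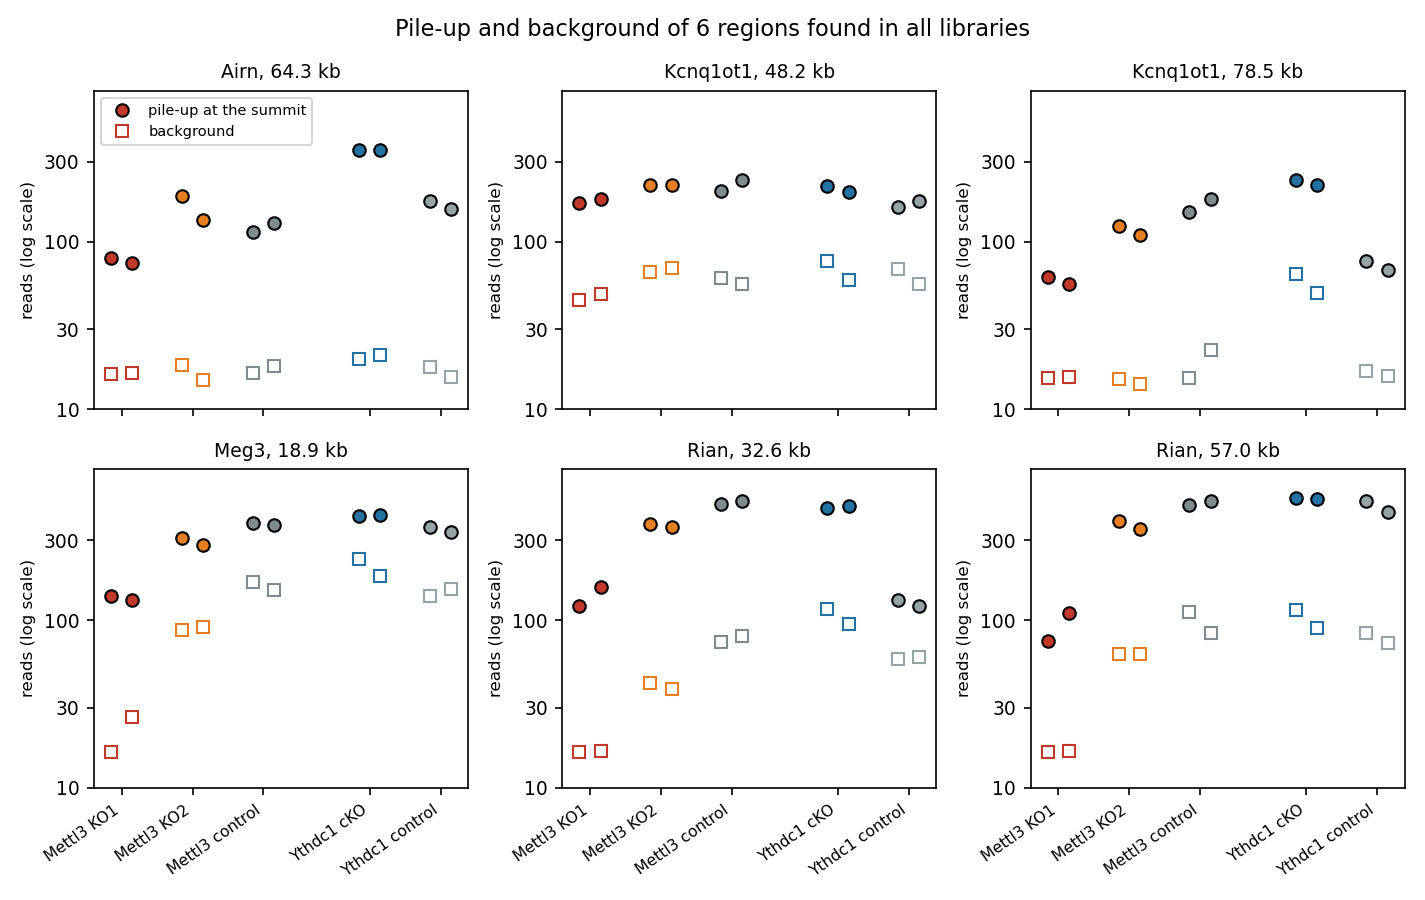
Reads piled up at the summit (filled circles) and Poisson background (open squares) of 6 regions found in all libraries, on a log scale (y axis), by group (x axis), with the 2 libraries of a group side by side. The Meg3 region and both Rian regions have 75 to 158 reads at the summit in KO1, against 372 to 515 in the Mettl3 control, and the Airn region has 354 and 355 in the cKO, against 176 and 157 in the Ythdc1 control.

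In the cKO the 3 kept Meg3 regions with matched summits had a scaled pile-up of 1.03 to 1.29 times the Ythdc1 control. Those at 3.02 and 30.5 kb share most of their exonic sequence with other transcripts, so their reads are uncertain. The 2 Rian regions differed from each other. The one at 57.0 kb was at 0.946 times the control, with 536 and 527 reads in the cKO, against 517 and 441. The one at 32.6 kb was at 3.19 times, with 470 and 479 reads in the cKO, against 132 and 121. Over all regions kept, 4.59% reached 2 times the control or more. The fold of the region at 32.6 kb was 4.01 and 5.02 in the cKO, against 2.22 and 2.00 in the Ythdc1 control. It is intronic, so it was not checked for sequence shared with other transcripts.

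The stretches between these genes also carried peaks on the same strand. Between Meg3 and Rian (32.2 kb) there were 3 and 7 peaks in KO1 and 5 and 4 in KO2, against 6 and 6 in the Mettl3 control, and 3 in each cKO library, against 4 in each Ythdc1 control library. A region that begins beyond the end of Meg3 (chr12:109572672-109576959) was present in all 10 libraries, at 6.90-fold to 11.4-fold. Between Rian and Mirg (68.0 kb) KO1 had no peak in either library and KO2 had 4 and 3, against 4 and 4 in the Mettl3 control. The cKO had 3 in each library there, against 3 and 4 in the Ythdc1 control.

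**Figure D5:**
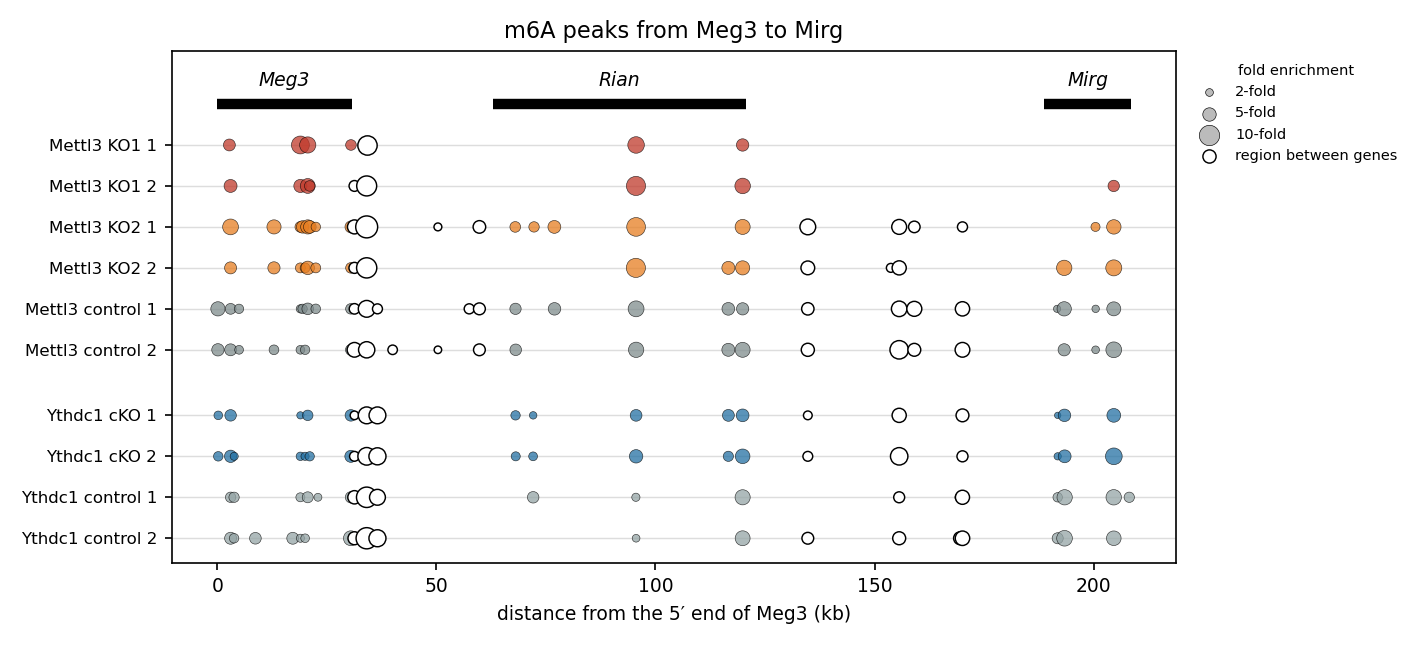
Summits of m6A peaks from Meg3 to Mirg (x axis, kb from the 5′ end of Meg3) in each of the 10 libraries (rows), with the 3 genes drawn as bars; the area of a point grows with the fold enrichment, and open points are regions between the genes. The KO1 rows hold no peak between Rian and Mirg, where every other row has at least 2 regions.

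H19 (chr7:142575529-142578143, minus strand), the smallest member, had no peak in KO1, 1 in each KO2 library and none in either Mettl3 control. It had 1 in each cKO library, against 1 and 2 in the Ythdc1 control. The mean difference was 0.5 for the Mettl3 knockouts (0.5 ± 0.577, n = 4, against 0 ± 0, n = 2, SD; exact two-sided permutation p = 0.467) and −0.5 for the cKO (exact permutation p = 1). Its main region lay at the 5′ end (chr7:142577410-142578029), with folds of 5.36 and 4.37 in KO2 and of 4.37 and 1.89 in the cKO, against 4.54 and 2.43 in the Ythdc1 control. The second region, in replicate 2 of the Ythdc1 control alone, holds the hairpin of mir-675, whose reads cannot be told apart from those of H19. The window of the main region, around its summit of highest fold at 0.205 kb (chr7:142577888-142577988), and the 5p arm of that microRNA (RefSeq, GRCm38.p6, seed in capitals) are:
H19, 0.205 kb: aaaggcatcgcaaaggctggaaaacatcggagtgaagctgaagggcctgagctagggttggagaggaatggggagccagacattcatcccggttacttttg
miR-675-5p: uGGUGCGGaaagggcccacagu

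The protein-coding and other neighbours of these RNAs were mostly without peaks. Of 23 genes of the 4 clusters 11 had a peak in any library, and Igf2r, Tssc4 and Nap1l4 had one in every library. The imprinted neighbours Igf2, Dlk1, Slc22a2 and Slc22a3 had none in any. Of 5 neighbour regions called in the Mettl3 controls 0 were lost and 2 kept, and 0 were gained. In the cKO 4 of 9 control regions were lost, 1 of Igf2r, 2 of Cd81 and 1 of Nap1l4, while 4 were gained, 2 of Tspan32, 1 of Ascl2 and 1 of Rtl1. Over all regions, 13.1% were lost in the Mettl3 knockouts and 17.9% in the cKO. Neighbour regions called in all knockout libraries were not totalled, so the gained counts have no share. Igf2r, within which Airn starts, had 1 peak in each cKO library, against 2 in each Ythdc1 control library. Of all genes with a peak, 25.2% lay below both Ythdc1 controls in the cKO. Igf2r had 1 peak in each of the 6 Mettl3 libraries.

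Of 24 other imprinted genes 22 had a peak, and 3 of 54 control regions were lost in the Mettl3 knockouts, 2 of Plagl1 and 1 of Ube3a, while 6 were gained, 4 of Gnas, 1 of Peg13 and 1 of Inpp5f. In the cKO 6 of 42 were lost, 1 each of Nespas, Grb10, Gnas, Snrpn, Impact and Inpp5f. Another 12 were gained, 7 of them of Snrpn, 2 of Sgce, 2 of Usp29 and 1 of Zim1. These losses stand beside 13.1% of all regions in the Mettl3 knockouts and 17.9% in the cKO. The gained counts have no share here either. Both lists were chosen with results of these data known.

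Over the 10 libraries, the genes whose peak number followed each member most closely, among 5865 genes with 20 or more peaks, were named by Pearson's r as a description, since the points share libraries and groups. For Airn they were Gm11867 (0.97), Lhfpl2 (0.95) and Arhgap6 (0.95). Gm11867 had 0 peaks in each KO1 library and 1 in each KO2 library, against 2 and 3 in the Mettl3 control, and 6 in each cKO library, against 2 in each Ythdc1 control library. For Kcnq1ot1 they were Ogfod1 (0.94), Aldh2 (0.94) and Sf3a1 (0.93), and for Meg3 3000002C10Rik, Pimreg and Cdc37l1 (0.91 each). For Rian they were Agbl4 (0.95), Tshz1 (0.92) and Ell (0.92), and for Mirg Klhl12 (0.93), Stk10 (0.92) and Ncoa7 (0.92). H19 had under 20 peaks and was left out.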

How the data were processed

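m6A was profiled in chromatin-associated RNA of 10 immunoprecipitated samples with a deposited peak list each, grouped by the labels' titles. The submitters' processing notes name the mm10 build, with MACS2, HISAT2 2.1.0, Trimmomatic 0.38 and CASAVA as tools. The MACS2 settings and read totals are not given in the sources used here. Peaks were called per library and strand. Each peak has the authors' display score, their fold enrichment (a ratio over background), and the −log10 of their p-value and q-value, which was at least 2.00 in every deposited list.

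Of each list, 17 to 35 peaks on unplaced contigs were not used. For each comparison, peaks were merged per strand where they overlapped by at least 1 bp. Peak numbers were compared with exact two-sided permutation tests for each RNA, 6 in each comparison, with no adjustment. Pile-up and background were solved from fold and p, with p as the Poisson chance of more reads than the pile-up. This step, the read counts over regions with summits within 150 bp, and the counts without Airn or Kcnq1ot1 were chosen after seeing the data. Between 98.4% and 99.4% of the peaks of a library gave a whole number within 0.002, and the rest, of very small p, were left out of the read comparisons. Region merging, the tests and this step were checked on simulated data. Intervals are not given, since a list holds no totals.

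The 6 RNAs and the gene lists were chosen with earlier results of these data known. Within an RNA, regions were named when lost or gained (the 6 of highest fold where there were more), among the 3 of highest fold, or where a result turned on them. The same replicate number did not mark paired libraries, since deviations of same-numbered libraries correlated at −0.018 to 0.036 over 15839 regions. Neural progenitor, trophoblast and primitive endoderm markers gave peaks for 3 of 5, 3 of 4 and 2 of 5 genes in any library. Python 3.11.15, numpy 2.4.6, pandas 2.3.3 and GENCODE M21 were used.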

Additional observations from a re-analysis of the deposited data

Results flagged for a closer look

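Airn peak numbers moved in opposite directions in the writer and reader comparisons. All 4 Mettl3 knockout libraries lay below both controls, with a mean difference of −8.5 peaks, and both cKO libraries above theirs, with a mean difference of 12.5. The difference between the comparisons was not tested. Depth, taken as the most common background, was higher in the cKO, at 20.03 and 19.27 reads against 17.77 and 15.69 in its control, and its part was not tested.

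A group of 4 regions was absent from all 4 Mettl3 knockout libraries and present in both Mettl3 controls, while present in both cKO libraries and absent from both Ythdc1 controls. They stand at 62.5 kb and 82.8 kb in Airn, at 53.1 kb in Kcnq1ot1 and at 0.166 kb in Meg3, when peaks of all 10 libraries are merged. The share of all regions with this pattern was not counted, so the pattern cannot be called particular to these RNAs. By definition the pattern also requires that the Mettl3 and Ythdc1 controls differ from each other. It was not tested.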

How the results depend on the processing

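Over the results tried, 93 alternatives of the region counts and summed peak numbers moved by less than 1.5 times (counts) or 1 SD (values), 25 moved further and 1 turned the direction. For single RNAs, 111 stayed, 4 moved and 5 turned the direction. Both tallies count the replicate block as unmoved, although it could not change these values. Unless stated, the cause was not tested.

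In the Mettl3 comparison, lost regions numbered 7. They were 2 with peaks of 3-fold or more, 3 with exonic summits, 12 when absence from 3 of the 4 knockout libraries was enough, 19 in KO1 alone and 4 without Airn. Kept regions numbered 20, against 31 in KO2 alone and 6 without Kcnq1ot1, and gained regions 0, against 1 with 3-fold peaks and 2 in KO2 alone. The summed difference of −15 peaks was −4.75 with 3-fold peaks and −3.75 in exons. With 3-fold peaks the difference was 1.25 for Kcnq1ot1 and 1.75 for Meg3, and scaling to list length gave 0.396 for Kcnq1ot1. Regions with a scaled pile-up below both controls numbered 8, against 5 with matched summits alone. Leaving out each library gave 7 to 13 lost, 20 to 22 kept, 0 gained and −18.3 to −12 peaks.

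In the Ythdc1 comparison, lost regions numbered 3, against 0 with 3-fold peaks and 0 without Kcnq1ot1. Kept regions numbered 34, against 17 with 3-fold peaks and 17 without Kcnq1ot1, and gained regions 16, against 5 in exons and 6 without Airn. The summed difference of 8 peaks was 13.5 with 3-fold peaks, 4.53 scaled to list length and −3.5 in exons, which leave out most of Airn. With 3-fold peaks Kcnq1ot1 differed by 2. Of the 34 regions kept, 7 (20.6%) had a scaled pile-up below both controls, against 45.6% of all regions kept. When pile-ups were not scaled the count fell to 2 (5.88%), against 27.8%. Above both controls lay 20 scaled pile-ups (58.8%), against 28.7% of all regions kept. With matched summits alone, which leaves fewer regions, 13 of 23 lay above, against 27.2%. Leaving out each library gave 3 to 8 lost, 35 to 36 kept, 18 to 21 gained and 6 to 10 peaks, and for Meg3 −1.5 to 0.5.

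A replicate block left the differences and counts as they were by construction, at −15 and 8 peaks, and its exact permutation p was 0.222 for Airn in the Mettl3 comparison, against 0.133. Read totals are unknown, so weak regions near the calling threshold limit these counts.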
